A study of Mus musculus with 36 samples.

Results

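The 38 genes described here carry out or regulate glycolysis, move glucose and lactate across membranes, answer to low oxygen, or store and release glycogen. They were chosen by name, and their symbols were matched to the mouse Ensembl identifiers of a table of estimated RNA-seq counts with 55421 genes. One symbol, Aldoa, matched 2 identifiers, so the genes took 39 rows. All 39 were among the 19478 rows that had enough counts to be tested.

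Neurons and glia draw most of their energy from glucose, which enters through transporters, is phosphorylated by hexokinases and is broken down to pyruvate by the glycolytic enzymes. Pyruvate is either oxidised in mitochondria, a step that the pyruvate dehydrogenase kinases restrain, or reduced to lactate, which monocarboxylate transporters carry between astrocytes and neurons. When oxygen is low, hypoxia-inducible factor escapes degradation and raises the transcription of many of the same enzymes and transporters, so shared transcripts are read both as glycolytic genes and as hypoxia targets.

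The RNA came from slices of the right hippocampus of 18 mice aged 16 months, either C57BL/6 wild-type mice (WT) or T41B mice, which carry human APP with the London and Swedish mutations under the neuronal Thy1 promoter and model amyloid deposition. From 13 months on, every mouse was given vehicle (VEH) or BD10-2, a compound that partially activates TrkB and TrkC, for 3 months by oral gavage. Slices then received theta-burst stimulation, given 3 times as 10 bursts that each held 4 stimuli at 100 Hz, or a sham procedure of equal duration, and were frozen at once. The 8 groups of genotype, treatment and stimulation held 4 mice each under vehicle, 3 WT mice each under BD10-2 and 5 T41B mice each under BD10-2. Both slice types came from 14 of the mice, 1 stimulated and 1 sham sample each.

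The 36 libraries held 11597555 to 28125842 estimated counts each, and libraries with the same mouse and stimulation labels were added, which left 32 samples. Thy1, the gene whose promoter drives the transgene, separated the labelled genotypes, at 253 to 403 CPM in the 16 WT libraries and 918 to 2504 CPM in the 20 T41B libraries. Among T41B mice the library that was lowest for Thy1 was 1 of a pair from the stimulated slice of Mouse1592, whose partner stood at 1937 CPM. There were 6 samples, all vehicle-treated, with more than 100 CPM of summed choroid plexus markers, and 2 of them, the stimulated slices of WT Mouse1509 and Mouse1513, held 1205 and 985 CPM. All 6 came from batches E and G as named in the labels, of which E held only WT and G only T41B mice. Leaving them out removes all of batch G and the stimulated slices of batch E. Choroid plexus tissue, batch and the smaller number of samples can therefore not be told apart in that setting. Member calls that were lost without these 6 samples are given with both values. Each of the marker genes listed for neurons, astrocytes and oligodendrocytes was detected in every group.

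Levels are CPM, the estimated counts of a gene scaled to a common library size, with library totals adjusted by the TMM method. A gene was called changed at an adjusted p under 0.05 in edgeR's quasi-likelihood test, with Benjamini-Hochberg adjustment over all tested genes, and log2 fold changes are given ± standard error (SE). For edgeR this SE is approximate, the absolute log2 fold change divided by the square root of the test's F value. For DESeq2 it is the standard error that DESeq2 reports. The samples are slices of bulk tissue, in which fewer cells of a type and less RNA per cell cannot be told apart.

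Of all tested genes, 8.21% were called higher and 4.10% lower after stimulation in vehicle-treated WT mice. The shares were 11.7% higher and 9.83% lower in T41B mice on vehicle, 6.29% and 2.58% in BD10-2-treated WT mice, and 13.3% and 9.52% in BD10-2-treated T41B mice. Against this background, stimulated slices had 6 member rows called higher and 2 lower in vehicle-treated WT mice, 5 and 4 in T41B mice on vehicle, 5 and 1 in BD10-2-treated WT mice, and 8 and 3 in BD10-2-treated T41B mice, each of 39. The median log2 fold change of the 39 rows was 0.08, -0.03, -0.03 and -0.01 in that order, beside -0.01, -0.05, -0.01 and -0.04 for all tested genes. The members' medians thus lay close to those of all genes, while single members moved far. Hk2, Pfkfb3, Pdk4, Slc2a1 and Slc16a1 rose in all 4 comparisons, and Gyg fell in all 4.

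**Figure D1:**
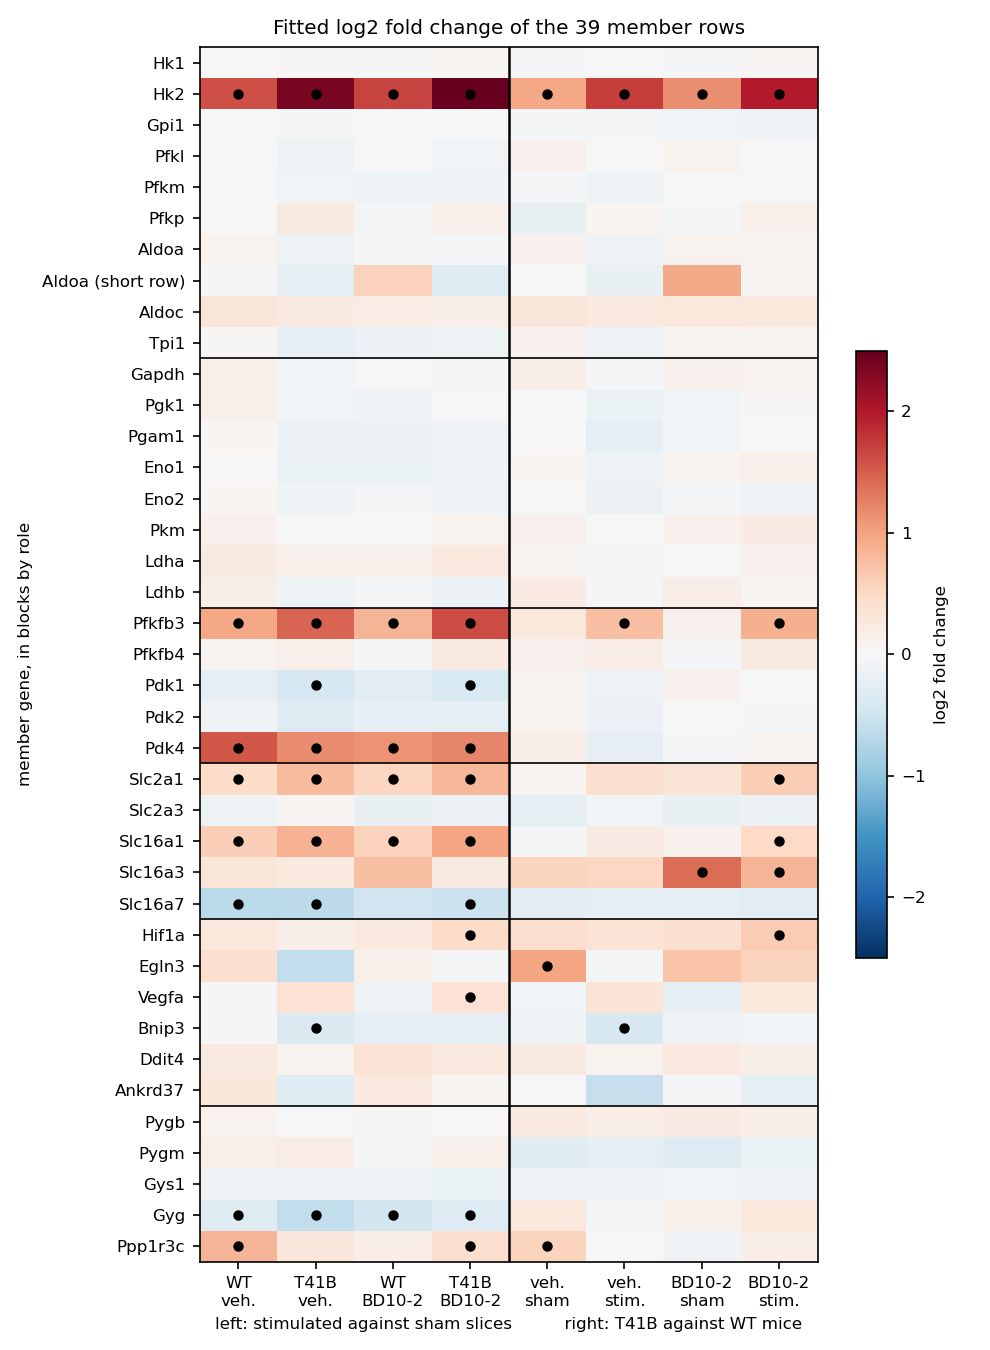
Fitted log2 fold changes of the 39 member rows (vertical axis, in blocks by role: upper glycolysis, lower glycolysis, regulators, transporters, hypoxia genes, glycogen genes) in 4 stimulation comparisons (left) and 4 genotype comparisons (right), with colour for the size and black dots for calls at an adjusted p under 0.05 in edgeR. Hk2 is the one row with a dot in all 8 columns, and 25 rows have no dot.

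The sequence just upstream of the start is shown because it can be set beside which members rose. The core of the hypoxia response element, to which hypoxia-inducible factor binds, reads ACGTG or GCGTG. Both strands of the 250 bases before each RefSeq transcription start (build GRCm38.p6) were searched, and a CACGTG, which reads the same on both strands, counts once on each. The core occurred in 38.6% of all 32851 such windows and in 78.4% of the 51 windows of the 36 members that have one in the table. A member with several windows counted once for each, and the members were chosen by name, with known hypoxia targets among them. These shares are thus a description and not a test. Printed 5′ to 3′ on the gene's own strand and with cores in capitals are 4 genes that rose with stimulation (Hk2, Pfkfb3, Slc2a1, Slc16a1) and 3 textbook hypoxia targets that did not share these calls (Ldha, Bnip3, Pdk1), each with its window of most cores. Bases that lie in annotated exons were left off.
Hk2 (chr6:82774455-82774704, minus strand): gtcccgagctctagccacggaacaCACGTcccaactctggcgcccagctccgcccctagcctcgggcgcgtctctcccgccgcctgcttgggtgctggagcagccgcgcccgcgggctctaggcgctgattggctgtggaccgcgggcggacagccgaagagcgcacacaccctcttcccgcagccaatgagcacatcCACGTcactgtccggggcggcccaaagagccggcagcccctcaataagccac
Pfkfb3 (chr2:11502102-11502340, minus strand): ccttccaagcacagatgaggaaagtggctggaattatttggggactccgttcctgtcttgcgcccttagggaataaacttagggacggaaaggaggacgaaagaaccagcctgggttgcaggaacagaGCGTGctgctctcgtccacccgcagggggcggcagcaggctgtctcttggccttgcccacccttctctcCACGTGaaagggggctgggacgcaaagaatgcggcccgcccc
Slc2a1 (chr4:119108495-119108710, plus strand): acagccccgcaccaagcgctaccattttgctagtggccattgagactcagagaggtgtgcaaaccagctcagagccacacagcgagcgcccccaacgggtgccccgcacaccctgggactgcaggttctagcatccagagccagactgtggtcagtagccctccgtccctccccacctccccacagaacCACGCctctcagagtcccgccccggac
Slc16a1 (chr3:104638414-104638663, plus strand): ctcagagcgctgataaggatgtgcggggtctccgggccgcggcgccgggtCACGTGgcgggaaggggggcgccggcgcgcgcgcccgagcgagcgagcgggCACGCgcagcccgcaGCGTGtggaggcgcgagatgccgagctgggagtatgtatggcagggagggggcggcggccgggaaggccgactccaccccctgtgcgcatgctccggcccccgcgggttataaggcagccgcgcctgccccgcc
Ldha (chr7:46845554-46845803, plus strand): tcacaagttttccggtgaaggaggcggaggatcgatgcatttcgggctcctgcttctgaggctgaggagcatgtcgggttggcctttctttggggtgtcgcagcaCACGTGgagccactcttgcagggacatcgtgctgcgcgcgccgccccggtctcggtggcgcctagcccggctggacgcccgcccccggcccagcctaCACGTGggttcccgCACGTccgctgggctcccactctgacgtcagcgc
Bnip3 (chr7:138909520-138909756, minus strand): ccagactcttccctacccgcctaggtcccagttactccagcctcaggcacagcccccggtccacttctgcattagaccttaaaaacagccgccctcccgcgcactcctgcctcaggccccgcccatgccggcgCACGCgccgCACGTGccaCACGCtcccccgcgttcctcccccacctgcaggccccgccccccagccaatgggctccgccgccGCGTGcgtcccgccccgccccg
Pdk1 (chr2:71872974-71873223, plus strand): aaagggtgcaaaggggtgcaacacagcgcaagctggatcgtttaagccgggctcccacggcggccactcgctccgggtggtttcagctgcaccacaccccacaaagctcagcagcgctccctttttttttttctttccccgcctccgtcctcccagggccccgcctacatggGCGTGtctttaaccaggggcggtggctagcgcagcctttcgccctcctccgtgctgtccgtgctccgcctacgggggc
Hk2 held 2 cores in its stretch, Pfkfb3 3, Slc2a1 1 and Slc16a1 4. Ldha and Bnip3 held 5 each, and Pdk1 held 1. A second window of Pfkfb3 held 1, of Ldha 1 and of Pdk1 0. Pdk4, which also rose in all 4 comparisons, and Gyg, which fell, held 1 each, and Eno2, Gpi1, Gys1 and Tpi1 held 0. These matches are letters in a window and not measured binding sites.

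Hk2 (chromosome 6, 82725025 to 82774454), the inducible hexokinase, which phosphorylates glucose, had the largest response of the module. In vehicle-treated WT mice the sham slices read 6.70, 8.24, 9.56 and 9.76 CPM and the stimulated slices 21.7, 25.1, 27.7 and 30.9 CPM. In vehicle-treated T41B mice the sham slices read 13.5, 16.7, 17.95 and 19.01 CPM and the stimulated slices 67.7, 75.6, 92.9 and 110.4 CPM. Every stimulated slice lay above every sham slice of its group, and the T41B stimulated slices were the highest of these 4 groups. Under BD10-2 the WT slices read 8.05, 8.196 and 9.20 CPM after sham and 22.5, 29.4 and 29.5 CPM after stimulation. The BD10-2-treated T41B slices read 14.8, 16.99, 19.2, 21.98 and 22.03 CPM after sham and 49.1, 86.6, 101, 144 and 153 CPM after stimulation, the widest spread of any group. Its lowest value, 49.1 CPM, came from Mouse1592, whose 2 libraries read 28.1 and 66.9 CPM.

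The log2 fold change of Hk2 with stimulation was 1.61 ± 0.24 in vehicle-treated WT mice (edgeR adjusted p = 1.67e-05) and 2.37 ± 0.23 in vehicle-treated T41B mice (edgeR adjusted p = 9.46e-09). Under BD10-2 it was 1.68 ± 0.27 in WT mice (edgeR adjusted p = 7.54e-05) and 2.49 ± 0.21 in T41B mice (edgeR adjusted p = 2.09e-10). In each of the 14 mice with both slices the stimulated slice was higher, with a median difference of 1.81 on the log2(CPM + 1) scale. The difference between the genotypes in this response was 0.75 ± 0.33 under vehicle (unadjusted p = 0.0289, edgeR adjusted p = 0.529) and 0.81 ± 0.33 under BD10-2 (unadjusted p = 0.0214, edgeR adjusted p = 1). Neither interaction passed the threshold, so the steeper response in T41B slices is a description.

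Set against the other hexokinases per kilobase of exon, Hk2 remained a minor isoform in sham slices and became a sizeable one after stimulation in T41B mice. Its share of the summed Hk1, Hk2 and Hk3 level per kilobase was 3.62% ± 0.31 (SD, n = 4) in sham and 10.2% ± 1.33 (SD, n = 4) in stimulated vehicle-treated WT slices. In vehicle-treated T41B slices the share was 6.99% ± 1.22 (SD, n = 4) after sham and 25.5% ± 3.96 (SD, n = 4) after stimulation. With BD10-2 it went from 3.92% ± 0.24 to 11.3% ± 1.68 (SD, n = 3 each) in WT mice and from 8.51% ± 1.44 to 29.7% ± 9.43 (SD, n = 5 each) in T41B mice. Hk1, the constitutive brain hexokinase bound to mitochondria, had log2 fold changes of -0.03 to 0.07 with stimulation and was not called.

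The other enzymes of the pathway stood apart from Hk2. Glucose-6-phosphate isomerase (Gpi1), the 3 phosphofructokinase subunits (Pfkl, Pfkm, Pfkp), the aldolases (Aldoa, Aldoc), triose-phosphate isomerase (Tpi1), Gapdh, phosphoglycerate kinase (Pgk1), phosphoglycerate mutase (Pgam1), the enolases (Eno1, Eno2), pyruvate kinase (Pkm), the lactate dehydrogenases (Ldha, Ldhb) and Hk1 make 16 enzymes, and 0 of 16 were called in any of the 4 stimulation comparisons. At an unadjusted p under 0.05 in edgeR there were 2, 1, 0 and 1 of the 16, in the order vehicle WT, vehicle T41B, BD10-2 WT and BD10-2 T41B. DESeq2 called 0, 0, 0 and 1. Their log2 fold changes all lay between -0.20 and 0.30, and their medians were 0.05, -0.07, -0.03 and -0.04.

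Slices of 1 mouse share that animal, and a fit with the mouse as a replicate block, which compares the slices within animals, called a few of these small differences. It called 2 of the 16 enzymes in vehicle-treated WT mice, 4 in T41B mice on vehicle, 0 in BD10-2-treated WT mice (2 complete pairs) and 2 in BD10-2-treated T41B mice. With the block 19.6%, 27.7%, 6.39% and 22.7% of all tested genes were called in that order, so the enzymes had no larger share of calls than all genes. Ldha, which makes lactate from pyruvate, was the one with the most even direction, higher in the stimulated slice of 14 of 14 mice by a median of 0.17 on the log2(CPM + 1) scale. Its group values were 107 ± 15.4 CPM in sham and 125 ± 18.98 CPM in stimulated vehicle-treated WT slices (SD, n = 4 each), and 101 ± 3.89 and 119 ± 5.67 CPM in BD10-2-treated T41B slices (SD, n = 5 each). With the block, Ldha had log2 fold changes of 0.22 ± 0.04 (edgeR adjusted p = 0.00254) in vehicle WT, 0.16 ± 0.04 (edgeR adjusted p = 0.016) in vehicle T41B and 0.25 ± 0.04 (edgeR adjusted p = 6.18e-04) in BD10-2 T41B mice. Without the 6 samples rich in choroid plexus markers, Ldha was also called in the fit without the block, at 0.37 ± 0.11 in vehicle WT (edgeR adjusted p = 0.0304) and 0.24 ± 0.08 in BD10-2 T41B mice (edgeR adjusted p = 0.0409). In BD10-2 T41B mice Ldha was called as well by DESeq2 (DESeq2 adjusted p = 0.0381), with RLE scaling, in a fit on only those groups, with a batch term and with the second library of each same-label pair (edgeR adjusted p = 0.0491, 0.0145, 0.0197 and 0.0258). Aldoc, the aldolase of astrocytes, was called higher with the block in the same 3 comparisons, at 0.27 ± 0.08, 0.27 ± 0.08 and 0.22 ± 0.08. Pfkp rose (0.28 ± 0.08) and Tpi1 fell (-0.17 ± 0.06) with the block in vehicle-treated T41B mice.

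Per kilobase of exon, Aldoa (284.8 ± 44.8 CPM per kilobase, SD, n = 32 samples) and Aldoc (194.9 ± 34.8) were the highest of the 39 rows. In comparison Slc16a3 (0.68 ± 0.25) and the second Aldoa identifier, a short row next to the main gene (0.86 ± 0.25), were the lowest. Aldoa read 846 ± 145 CPM in sham and 897 ± 203 CPM in stimulated vehicle-treated WT slices, and 916 ± 157 and 843 ± 149 CPM in vehicle-treated T41B slices (SD, n = 4 each). Under BD10-2 it read 764 ± 130.3 and 737 ± 119 CPM in WT (SD, n = 3 each) and 816 ± 46.4 and 788 ± 84.4 CPM in T41B slices (SD, n = 5 each). Aldoc read 511 ± 97.7 and 628 ± 185 CPM in vehicle-treated WT slices and 629 ± 80.6 and 739 ± 21.1 CPM in vehicle-treated T41B slices (SD, n = 4 each). With BD10-2 the Aldoc values were 537 ± 24.1 and 607 ± 84.4 CPM in WT (SD, n = 3 each) and 647 ± 62.6 and 730.2 ± 90.8 CPM in T41B slices (SD, n = 5 each). The Aldoc means were thus higher in the stimulated slices of all 4 pairs of groups, and those of Aldoa in 1. The second Aldoa identifier stayed under 2 CPM, with group means of 0.412 to 0.860 CPM, the lowest and the highest both in sham slices of BD10-2-treated mice (WT and T41B). Several of these enzymes have near-identical pseudogene copies, among which the authors' estimation divides reads, so their levels carry that uncertainty.

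**Figure D2:**
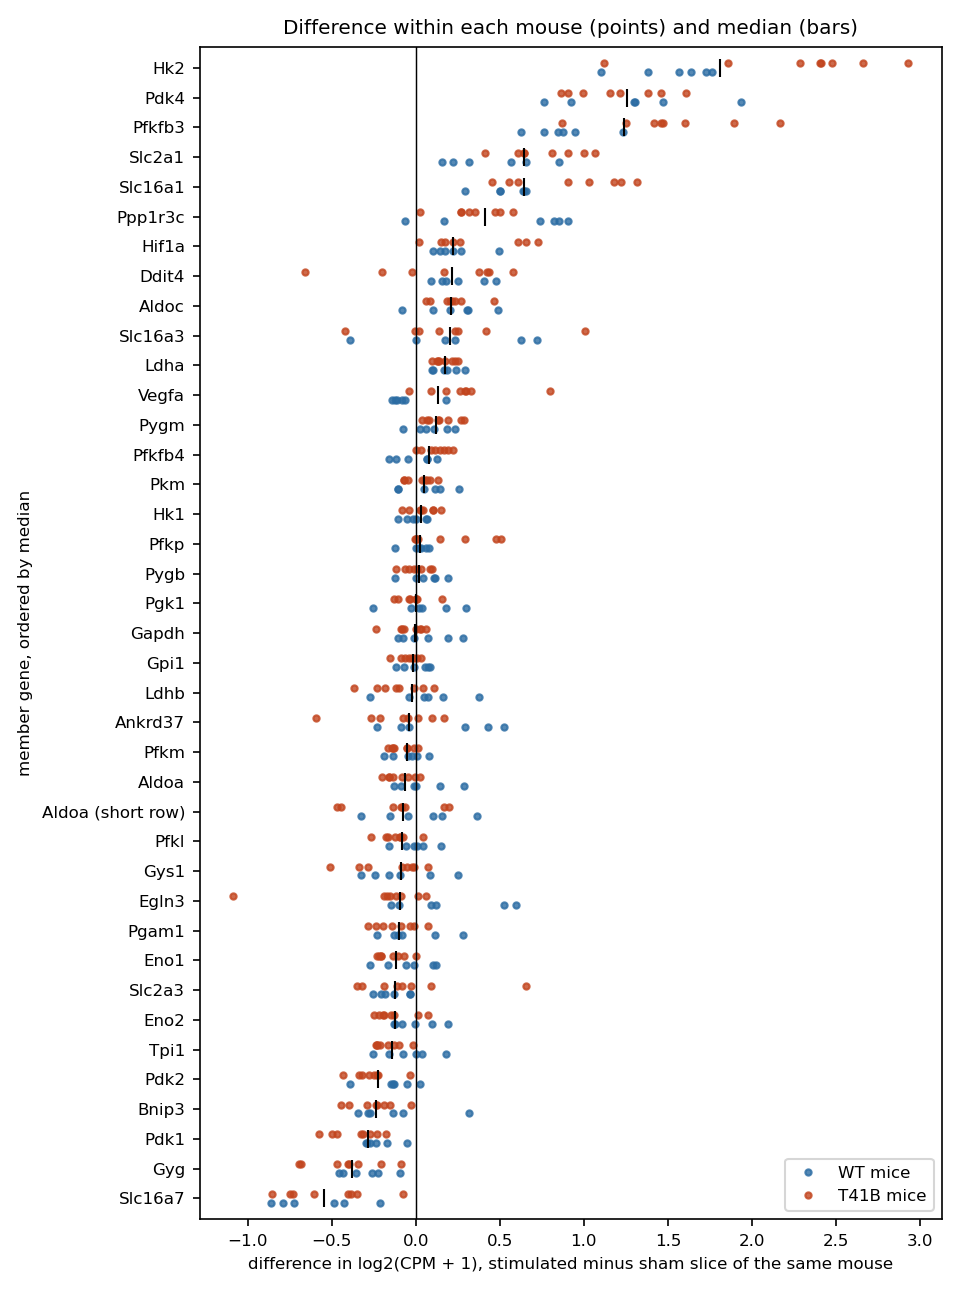
Difference in log2(CPM + 1) between the stimulated and the sham slice of the same mouse (horizontal axis) for the 39 member rows (vertical axis, ordered by median, marked by black bars), with 1 point for each of the 14 mice with both slices, blue for WT and red for T41B. All 14 mice lie right of 0 for Hk2, Pdk4, Pfkfb3, Slc2a1, Slc16a1, Hif1a and Ldha, and all 14 lie left of 0 for Pdk1, Gyg and Slc16a7.

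Of the 5 regulators of flux, Pfkfb3 and Pdk4 rose in all 4 comparisons. Pfkfb3 (chromosome 2, 11471433 to 11554077) makes fructose-2,6-bisphosphate, the strongest activator of phosphofructokinase. Sham slices read 33.1, 35.2, 38.3 and 41.5 CPM and stimulated slices 65.9, 68.6, 77.01 and 79.1 CPM in vehicle-treated WT mice. In vehicle-treated T41B mice they read 38.5, 42.2, 43.3 and 54.8 CPM and 92.9, 119, 133 and 148 CPM. Sham slices of the genotypes thus overlapped, and the stimulated T41B slices lay above all stimulated WT slices. Under BD10-2, WT slices read 38.3, 42.2 and 46.1 CPM after sham and 71.6, 76.8 and 79.7 CPM after stimulation, and T41B slices 40.7, 42.98, 45.5, 49.6 and 49.7 CPM and 91.5, 128, 138, 162 and 186 CPM. The log2 fold changes were 0.97 ± 0.15, 1.46 ± 0.15, 0.85 ± 0.17 and 1.63 ± 0.14 (edgeR adjusted p = 3.25e-05, 2.64e-08, 0.00135 and 2.32e-10), in the order vehicle WT, vehicle T41B, BD10-2 WT and BD10-2 T41B. The response was larger in T41B than in WT mice by 0.78 ± 0.22 under BD10-2 (unadjusted p = 0.00122), which did not pass the threshold (edgeR adjusted p = 0.446). Without Mouse1592 that difference was 0.95 ± 0.19 and did pass it (edgeR adjusted p = 0.0186), in a fit that called 76 genes with a larger and 3 with a smaller value in T41B mice, of 19406 tested. Pfkfb4, a second enzyme of this family, had log2 fold changes of -0.05 to 0.23 and was not called, while in BD10-2-treated T41B mice DESeq2 called it higher (0.25 ± 0.09, DESeq2 adjusted p = 0.0346). There edgeR also called it with RLE scaling, with the second library of each same-label pair and without Mouse1592 (edgeR adjusted p = 0.0418, 0.0146 and 0.0374).

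The pyruvate dehydrogenase kinases went in opposite directions. Pdk4 (chromosome 6, 5483351 to 5496309), an isoform induced in fasting and when fatty acids are burned, read 22.3, 22.5, 22.8 and 27.7 CPM in sham and 57.7, 63.7, 69.8 and 88.6 CPM in stimulated vehicle-treated WT slices. Vehicle-treated T41B slices read 19.9, 24.04, 28.8 and 34.5 CPM and 47.5, 64.3, 65.2 and 65.6 CPM. BD10-2-treated WT slices read 17.97, 27.7 and 32.3 CPM and 53.4, 55.6 and 60.8 CPM, and BD10-2-treated T41B slices 17.95, 23.5, 26.8, 27.01 and 30.5 CPM and 49.96, 51.2, 58.8, 61.7 and 73.6 CPM. No group of stimulated slices overlapped its sham group, and the genotypes overlapped throughout. Pdk4 rose by 1.55 ± 0.18, 1.18 ± 0.18, 1.12 ± 0.20 and 1.23 ± 0.16 on the log2 scale (edgeR adjusted p = 2.89e-07, 1.05e-05, 3.38e-04 and 5.69e-07).

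Pdk1, the isoform regarded as a classical target of hypoxia-inducible factor, was lower after stimulation in 14 of 14 mice. It was called in both T41B comparisons, at -0.42 ± 0.08 under vehicle (edgeR adjusted p = 3.49e-04) and -0.37 ± 0.07 under BD10-2 (edgeR adjusted p = 2.74e-04). The T41B values were 36.8, 37.7, 39.2 and 47.8 CPM after sham and 26.4, 31.2, 31.4 and 31.8 CPM after stimulation under vehicle, and 35.6, 36.3, 38.5, 42.7 and 43.9 CPM and 29.9, 29.9, 30.6, 30.6 and 31.4 CPM under BD10-2. In WT mice the log2 fold changes of -0.22 ± 0.08 and -0.27 ± 0.09 missed the threshold (edgeR adjusted p = 0.0735 and 0.0683), and the replicate block called the first of them (edgeR adjusted p = 0.0351). DESeq2 called the second (-0.27 ± 0.09, DESeq2 adjusted p = 0.0459), and so did edgeR with the first library of each same-label pair (-0.32 ± 0.10, edgeR adjusted p = 0.0494) and without the choroid-rich samples (-0.28 ± 0.08, edgeR adjusted p = 0.0297). Without the 6 samples rich in choroid plexus markers the vehicle T41B value was -0.28 and was not called (edgeR adjusted p = 0.105). Pdk2, the widespread isoform, had log2 fold changes of -0.32 to -0.08 that were not called, and with the replicate block it fell in both T41B comparisons (-0.28 ± 0.06 and -0.19 ± 0.06), as it did with a batch term under vehicle (-0.31 ± 0.10, edgeR adjusted p = 0.0222).

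Transporter isoforms also went different ways. Slc2a1 (chromosome 4, 119108711 to 119137983) encodes GLUT1, the glucose carrier of the blood-brain barrier and of astrocytes. Its sham and stimulated slices read 50.2, 54.01, 56.9 and 71.7 CPM and 66.6, 74.8, 79.9 and 98.1 CPM in vehicle-treated WT mice, and 51.3, 57.96, 60.8 and 72.7 CPM and 93.3, 97.1, 114 and 117 CPM in vehicle-treated T41B mice. Under BD10-2 they read 49.6, 57.6 and 62.2 CPM and 77.6, 78.1 and 91.4 CPM in WT mice, and 59.6, 66.3, 70.04, 73.6 and 85.3 CPM and 88.7, 124, 132, 134 and 156 CPM in T41B mice. Only the vehicle-treated WT groups overlapped. The log2 fold changes were 0.46 ± 0.15, 0.80 ± 0.15, 0.54 ± 0.17 and 0.84 ± 0.13 (edgeR adjusted p = 0.0364, 1.55e-04, 0.0388 and 1.10e-05). The T41B calls held without any 1 mouse. The vehicle-treated WT call was lost without Mouse1509 or Mouse1513, down to a log2 fold change of 0.31, and without the samples rich in choroid plexus markers (0.33 ± 0.17, edgeR adjusted p = 0.224). It was lost there too in a fit on only those groups (edgeR adjusted p = 0.0631) and with the first library of each same-label pair (edgeR adjusted p = 0.0794). In BD10-2-treated WT mice it was lost without Mouse1565, Mouse1571 or Mouse1590, down to 0.46, or with the replicate block (0.50 ± 0.17, edgeR adjusted p = 0.0946). The second library of each same-label pair also lost the BD10-2-treated WT call (0.39, edgeR adjusted p = 0.144). Slc2a3, which encodes GLUT3, the main glucose carrier of neurons, had log2 fold changes of -0.18 to 0.05 and was not called.

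Slc16a1 (chromosome 3, 104638668 to 104658462) encodes MCT1, the lactate carrier of endothelium and glia. In vehicle-treated mice it read 35.4, 35.98, 36.5 and 42.5 CPM after sham and 55.9, 57.3, 57.5 and 60.5 CPM after stimulation in WT, and 30.8, 35.4, 38 and 41.9 CPM and 57.9, 58.6, 73.2 and 78.1 CPM in T41B slices. In BD10-2-treated mice it read 29.01, 35.6 and 43.3 CPM and 50.7, 53.3 and 57.5 CPM in WT, and 34.2, 36.95, 38.3, 40.2 and 42.9 CPM and 50.6, 70.2, 72.1, 90.5 and 98.4 CPM in T41B slices. Stimulated and sham slices did not overlap in any of these pairs of groups, with log2 fold changes of 0.62 ± 0.14, 0.87 ± 0.14, 0.58 ± 0.17 and 0.99 ± 0.13 (edgeR adjusted p = 0.00387, 4.41e-05, 0.0235 and 7.52e-07). The BD10-2-treated WT call was lost without Mouse1565, Mouse1586 or Mouse1590 (0.45 to 0.73) and with the replicate block (0.42 ± 0.18, edgeR adjusted p = 0.187). Without the 6 samples rich in choroid plexus markers, which left 2 sham and 2 stimulated vehicle-treated T41B slices, the values there were 0.63 ± 0.20 for Slc2a1 and 0.54 ± 0.20 for Slc16a1, and neither was called (edgeR adjusted p = 0.0667 and 0.126).

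Slc16a7, which encodes MCT2, the high-affinity lactate carrier of neurons, went the other way and was lower after stimulation in 14 of 14 mice. Sham slices read 33.03, 42.2, 47.8 and 63.3 CPM and stimulated slices 24.3, 25.8, 29.8 and 36.1 CPM in vehicle-treated WT mice, against 26.4, 34.4, 46.3 and 47.05 CPM and 20.4, 25.04, 25.6 and 27.2 CPM in vehicle-treated T41B mice. With BD10-2 they read 37.02, 44.9 and 51.7 CPM and 25.3, 30.9 and 38.7 CPM in WT and 31.4, 33.5, 37.4, 39.1 and 46.97 CPM and 19.2, 20.3, 25.1, 28.4 and 36.7 CPM in T41B mice. The groups overlapped in all 4 comparisons. The log2 fold changes were -0.68 ± 0.20, -0.65 ± 0.21 and -0.54 ± 0.18 where it was called (edgeR adjusted p = 0.0264, 0.0226 and 0.0321) and -0.50 ± 0.23 in BD10-2-treated WT mice, where it was not (edgeR adjusted p = 0.201). Each of the 3 calls was lost without 1 or another mouse (Mouse1509, Mouse1513 or Mouse1522 in vehicle WT, Mouse1510, Mouse1551 or Mouse1579 in vehicle T41B, and Mouse1557, Mouse1564, Mouse1570 or Mouse1572 in BD10-2 T41B). The log2 fold changes left were -0.80 to -0.45. A fit on only those groups lost the vehicle WT call (-0.67, edgeR adjusted p = 0.0577). The vehicle T41B call was also lost without the samples rich in choroid plexus markers (-0.76 ± 0.28, edgeR adjusted p = 0.126). Slc16a3, the MCT4 lactate exporter, was low at 1.68 to 5.28 CPM in group means and was not called with stimulation (log2 fold changes 0.22 to 0.76). Vehicle-treated slices read 1.95, 2.19, 2.67 and 2.89 CPM after sham and 1.97, 2.33, 3.31 and 4.26 CPM after stimulation in WT, and 2.13, 3.75, 3.83 and 4.46 CPM and 3.08, 3.90, 4.66 and 5.27 CPM in T41B mice. In BD10-2-treated WT mice it was called higher without Mouse1565 (1.13 ± 0.33, edgeR adjusted p = 0.0497) and without the choroid-rich samples (0.75 ± 0.24, edgeR adjusted p = 0.0459).

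**Figure D3:**
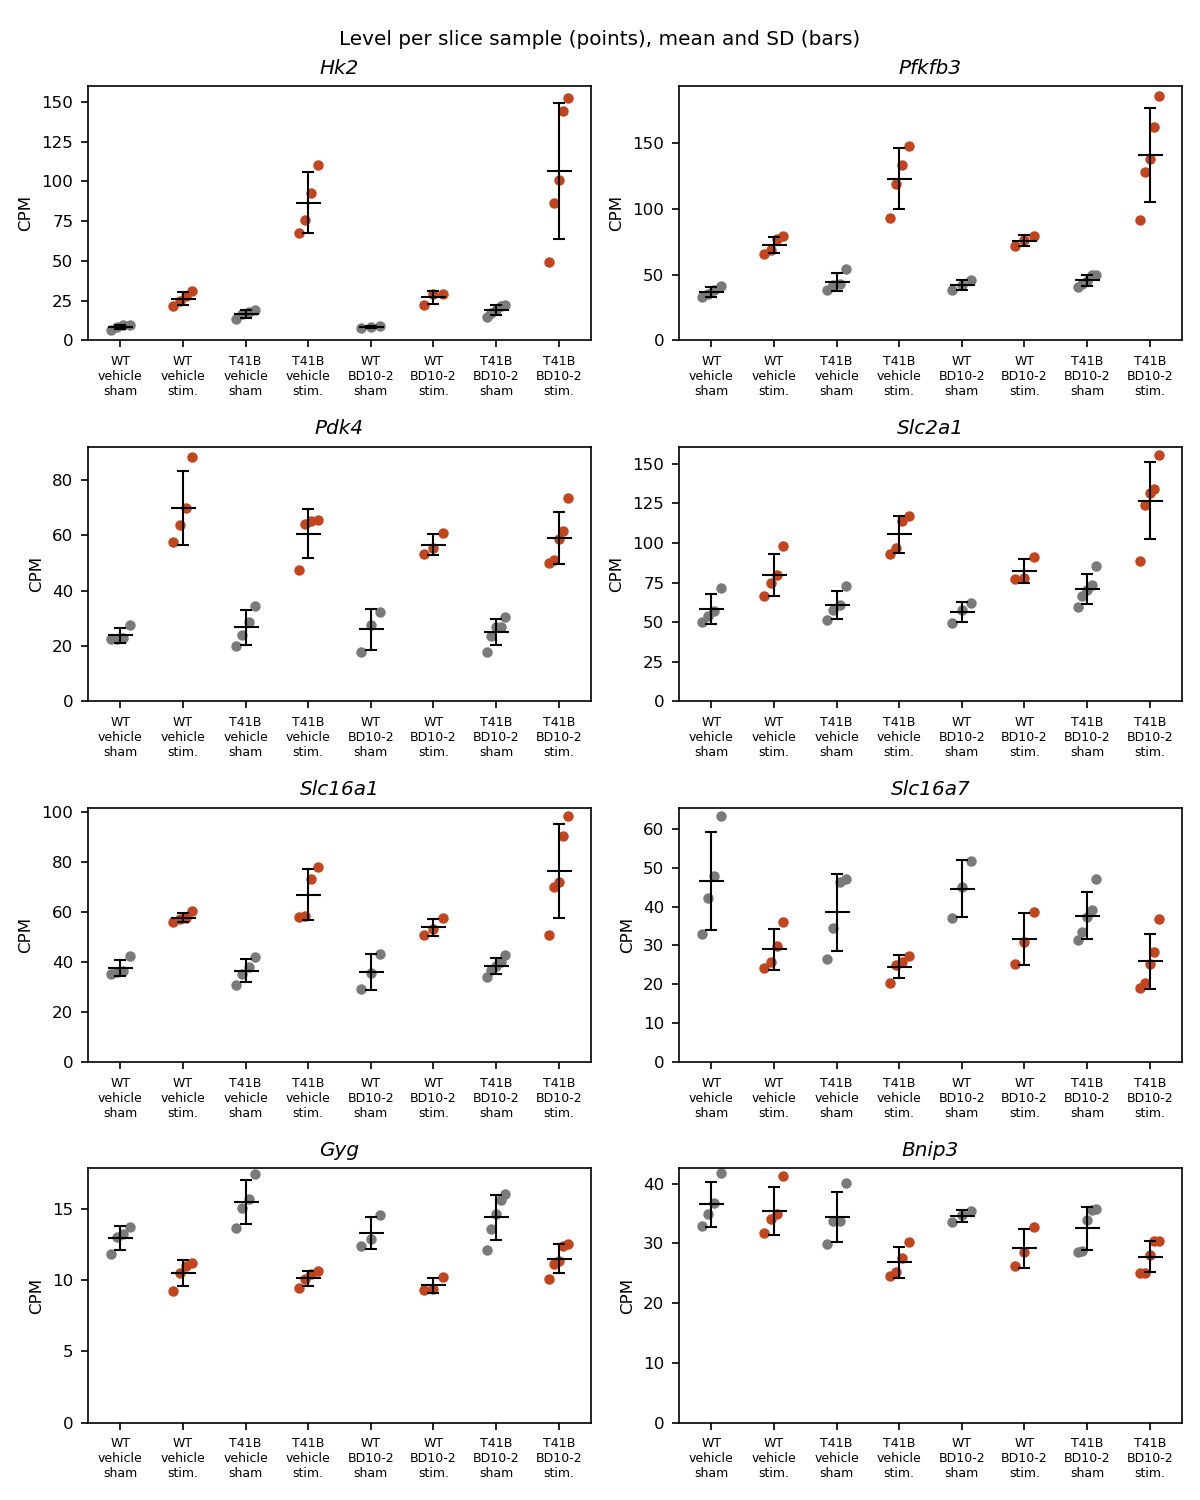
Level in CPM (vertical axes, from 0) of 8 members in each slice sample (points), with the mean and SD of each of the 8 groups (bars), grey for sham and red for stimulated slices. Hk2 and Pfkfb3 show the highest values in stimulated T41B slices, Pdk4 overlaps between the genotypes, and Slc16a7 and Gyg are lower after stimulation.

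The hypoxia genes differed in direction. Of the 6 genes in this role, Hif1a, Egln3, Vegfa, Bnip3, Ddit4 and Ankrd37, 0 were called in vehicle-treated WT and 0 in BD10-2-treated WT mice, with 0 at an unadjusted p under 0.05 in edgeR and 0 in DESeq2 in each. In vehicle-treated T41B mice 1 was called, lower, and in BD10-2-treated T41B mice 2 were called, both higher. Their median log2 fold changes were 0.24, -0.12, 0.18 and 0.15, in the order vehicle WT, vehicle T41B, BD10-2 WT and BD10-2 T41B.

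Hif1a, the oxygen-regulated subunit of the factor, was higher in the stimulated slice of all 14 mice by a median of 0.22 on the log2(CPM + 1) scale. It was called in BD10-2-treated T41B mice (0.46 ± 0.12, edgeR adjusted p = 0.00678), where sham slices read 62.4, 74.3, 77.6, 78.6 and 86.2 CPM and stimulated slices 76.9, 82.7, 95.9, 124 and 143 CPM, with overlap. That call missed the threshold in a fit on only those groups (0.47, edgeR adjusted p = 0.0525). Its other log2 fold changes were 0.26 ± 0.14, 0.17 ± 0.14 and 0.24 ± 0.16. Vegfa, the angiogenic growth factor, rose in the same comparison (0.37 ± 0.12, edgeR adjusted p = 0.0235), a call lost without Mouse1557 or Mouse1572 (down to 0.25) and with the replicate block (0.24 ± 0.10, edgeR adjusted p = 0.0844). In a fit on only those groups it was 0.38 and missed the threshold (edgeR adjusted p = 0.0542). For T41B mice on vehicle its value of 0.36 ± 0.13 missed the threshold (edgeR adjusted p = 0.0505), and the replicate block called it (0.39 ± 0.10, edgeR adjusted p = 0.00711). DESeq2 (DESeq2 adjusted p = 0.0283), RLE scaling, a batch term, the second library of each same-label pair and the set without the lower-Thy1 library of Mouse1592 called it too (edgeR adjusted p = 0.0381, 0.0266, 0.0285 and 0.0464). In WT mice Vegfa was -0.05 ± 0.13 and -0.13 ± 0.15.

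Bnip3, a mitophagy receptor whose promoter carried 5 cores, fell in vehicle-treated T41B mice (-0.36 ± 0.11, edgeR adjusted p = 0.0137), from 29.9, 33.8, 33.8 and 40.1 CPM to 24.5, 25.2, 27.5 and 30.2 CPM. That call was lost without Mouse1510 (-0.32 to -0.39 over the mice left out) and without the samples rich in choroid plexus markers (-0.38 ± 0.14, edgeR adjusted p = 0.12). A fit on only those groups lost it too (-0.35, edgeR adjusted p = 0.0545). Vehicle-treated WT slices read 32.9, 34.9, 36.8 and 41.7 CPM after sham and 31.7, 34.1, 34.9 and 41.2 CPM after stimulation. With BD10-2 the values were 33.5, 34.7 and 35.5 CPM and 26.2, 28.6 and 32.7 CPM in WT, and 28.6, 28.7, 33.9, 35.5 and 35.8 CPM and 24.99, 25.1, 28.1, 30.3 and 30.4 CPM in T41B mice. Bnip3 was lower in the stimulated slice of 13 of 14 mice. Egln3, an oxygen-sensing prolyl hydroxylase that is itself induced by hypoxia, was low at 2.15 to 4.22 CPM in group means and was not called with stimulation (log2 fold changes -0.61 to 0.40). Its stimulated slices under vehicle read 2.32, 2.33, 2.37 and 4.36 CPM in WT and 2.59, 2.73, 2.90 and 2.93 CPM in T41B mice. Under BD10-2 it read 1.57, 2.51 and 2.83 CPM after sham and 2.17, 2.30 and 3.16 CPM after stimulation in WT, and 2.89, 3.76, 3.84, 4.18 and 4.33 CPM and 3.06, 3.78, 3.88, 3.96 and 4.01 CPM in T41B mice. Ddit4, a stress-induced brake on mTOR signalling (0.09 to 0.35), and Ankrd37 (-0.32 to 0.27) were not called either.

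The enzymes and the hypoxia targets were also averaged. Each score averaged log2(CPM + 1) within a sample, over the 17 glycolytic enzymes, Hk2 included, and over 8 hypoxia targets (Egln3, Vegfa, Bnip3, Ddit4, Ankrd37, Pdk1, Pfkfb3 and Pfkfb4). The enzyme score was 7.94 ± 0.20 in sham and 8.10 ± 0.22 in stimulated vehicle-treated WT slices, and 8.05 ± 0.15 and 8.16 ± 0.14 in vehicle-treated T41B slices (SD, n = 4 each). Under BD10-2 it was 7.87 ± 0.16 and 7.93 ± 0.17 in WT (SD, n = 3 each) and 7.97 ± 0.04 and 8.10 ± 0.07 in T41B slices (SD, n = 5 each). The sham and stimulated groups overlapped in all 4 comparisons.

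The hypoxia score was 4.10 ± 0.09 and 4.27 ± 0.13 in vehicle-treated WT and 4.24 ± 0.09 and 4.32 ± 0.07 in vehicle-treated T41B slices (SD, n = 4 each). With BD10-2 it was 4.16 ± 0.07 and 4.26 ± 0.02 in WT (SD, n = 3 each) and 4.24 ± 0.06 and 4.46 ± 0.08 in T41B slices (SD, n = 5 each). Stimulated and sham groups did not overlap under BD10-2 in either genotype. Both scores were higher in the stimulated slice of 13 of 14 mice, by medians of 0.11 for the enzymes and 0.13 for the hypoxia targets, and the mean over all tested genes was higher in 13 of 14 by 0.03. The difference between the hypoxia and the enzyme score went up in 6 mice and down in 8.

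With Hk2 left out, the enzyme score of the remaining 16 was higher in the stimulated slice of 7 mice and lower in 7, and its group differences were 0.0717, -0.035, -0.0368 and -0.00858. With Pfkfb3 left out, the hypoxia score of the remaining 7 was higher in 5 mice and lower in 9, with group differences of 0.06, -0.12, -0.01 and 0.03. These versions were chosen after the values had been seen. The direction of both scores within mice was thus mixed once Hk2 or Pfkfb3 was left out.

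**Figure D4:**
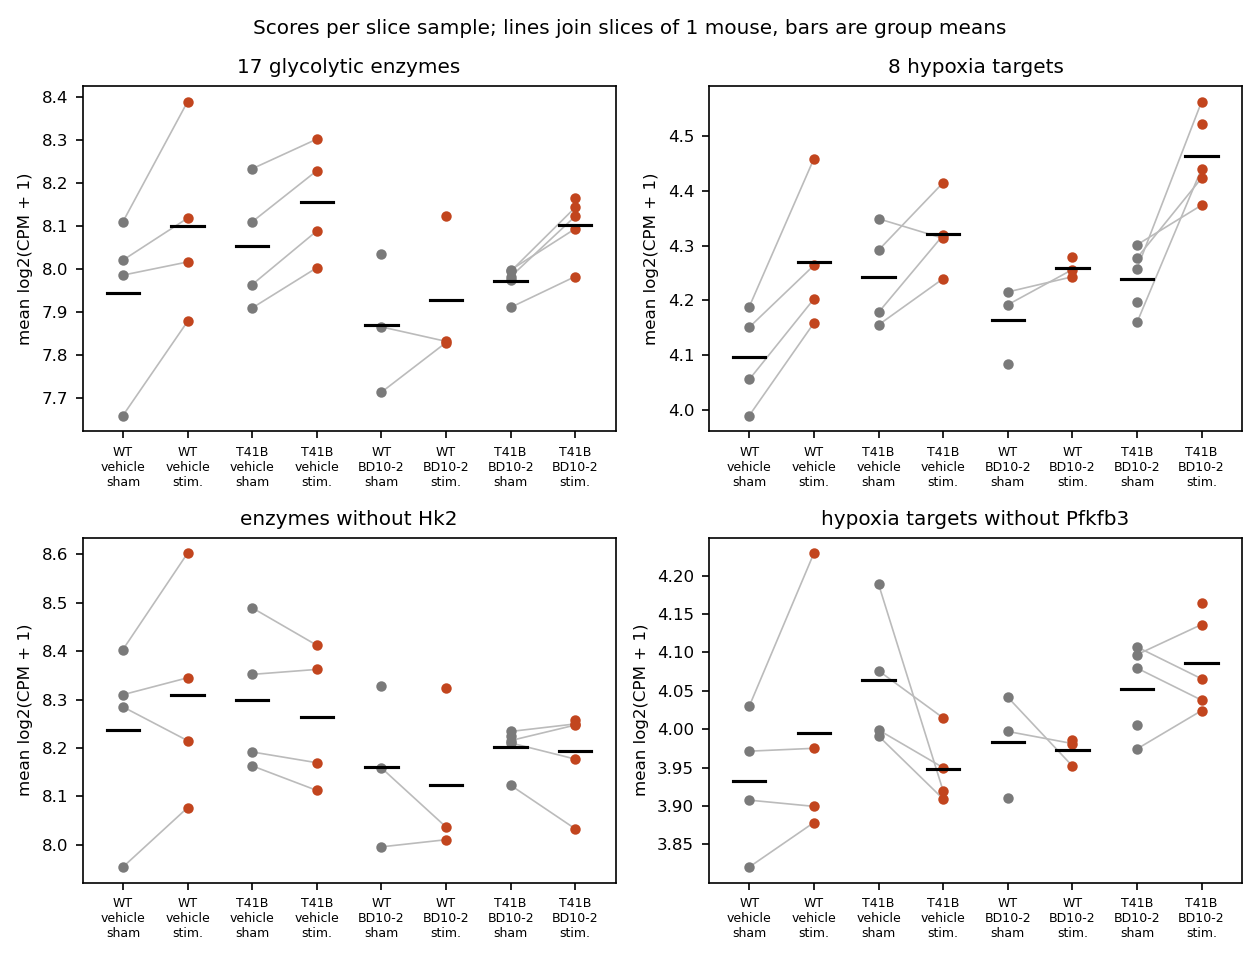
Mean log2(CPM + 1) per slice sample (vertical axes, ranges differ) over the 17 glycolytic enzymes and 8 hypoxia targets (top) and the same without Hk2 or without Pfkfb3 (bottom), in the 8 groups, with grey points for sham, red points for stimulated slices, grey lines joining slices of 1 mouse and black bars for group means. Most lines in the top panels rise, in 13 of 14 mice each, while in the bottom panels they rise in 7 and in 5 of 14.

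Among the glycogen genes, Gyg (chromosome 3, 20122084 to 20155317), the glycogenin on which a glycogen particle is started, fell in all 4 comparisons. Sham and stimulated slices read 11.8, 13.04, 13.3 and 13.7 CPM and 9.22, 10.5, 11.02 and 11.2 CPM in vehicle-treated WT mice, and 13.7, 15.1, 15.7 and 17.4 CPM and 9.42, 10.1, 10.4 and 10.6 CPM in vehicle-treated T41B mice. BD10-2-treated WT slices read 12.4, 12.9 and 14.6 CPM and 9.28, 9.40 and 10.2 CPM, and BD10-2-treated T41B slices 12.1, 13.6, 14.7, 15.6 and 16.02 CPM and 10.1, 11.1, 11.4, 12.4 and 12.6 CPM, the one pair of groups that overlapped. The log2 fold changes were -0.31 ± 0.10, -0.61 ± 0.10, -0.46 ± 0.11 and -0.33 ± 0.09 (edgeR adjusted p = 0.0359, 2.28e-05, 0.00593 and 0.00554). The vehicle-treated WT call was lost without Mouse1509, Mouse1522 or Mouse1524 (-0.37 to -0.24) or the samples rich in choroid plexus markers (-0.26 ± 0.12, edgeR adjusted p = 0.138), and the BD10-2-treated WT call without Mouse1590 (-0.56 to -0.40). The vehicle-treated WT call was also lost in a fit on only those groups (-0.30, edgeR adjusted p = 0.124), without a filter on low counts (edgeR adjusted p = 0.167) and with the first library of each same-label pair (edgeR adjusted p = 0.0529). With the replicate block both BD10-2 calls were lost (-0.37 ± 0.12 and -0.25 ± 0.09, edgeR adjusted p = 0.0902 and 0.0547).

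Ppp1r3c, a phosphatase subunit that promotes glycogen synthesis, rose in vehicle-treated WT mice from 37.7, 42.3, 43.4 and 57.1 CPM to 71.4, 73.2, 77.1 and 102 CPM (0.84 ± 0.12, edgeR adjusted p = 1.04e-05). In BD10-2-treated T41B mice it rose from 57.5, 57.7, 64.6, 65.9 and 67.4 CPM to 79.5, 82.05, 84.1, 84.6 and 86.5 CPM (0.41 ± 0.11, edgeR adjusted p = 0.00509). Neither pair of groups overlapped. In the other groups it was 0.27 ± 0.12 (edgeR adjusted p = 0.102) for T41B mice on vehicle, where the replicate block called it (0.31 ± 0.07, edgeR adjusted p = 0.00507) as did a batch term (edgeR adjusted p = 0.0369), and 0.17 ± 0.14 (edgeR adjusted p = 0.514) in BD10-2-treated WT mice. Vehicle-treated T41B slices read 54.9, 59.2, 73.4 and 76.96 CPM after sham and 70.2, 78.4, 82.6 and 88.6 CPM after stimulation, and BD10-2-treated WT slices 57.9, 70.6 and 70.9 CPM and 67.6, 76.8 and 79.9 CPM. The phosphorylases that break glycogen down (Pygb of brain, Pygm of muscle) and glycogen synthase (Gys1) were not called, with log2 fold changes of -0.16 to 0.18, and the replicate block called Pygm in vehicle-treated T41B mice (0.21 ± 0.07).

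Genotype was the second comparison, and it shares its groups with the stimulation comparisons. T41B mice had 5.0% of all tested genes called higher and 1.24% lower than WT mice in vehicle-treated sham slices, 4.74% and 1.05% in vehicle-treated stimulated slices, 4.31% and 1.14% in BD10-2-treated sham slices, and 8.19% and 2.36% in BD10-2-treated stimulated slices. Without the choroid-rich samples the vehicle-treated shares were 1.27% and 0.0102% in sham and 1.13% and 0.0407% in stimulated slices. The members had 3, 2, 2 and 6 rows called higher and 0, 1, 0 and 0 called lower, of 39 each. Their median log2 fold changes were 0.07, -0.05, 0.06 and 0.08, beside 0.00, -0.03, 0.01 and -0.02 for all tested genes.

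Hk2 was the one member called higher in T41B mice in all 4 comparisons, and the groups did not overlap in any. The log2 fold changes were 0.97 ± 0.24 and 1.72 ± 0.22 in sham and stimulated vehicle-treated slices (edgeR adjusted p = 0.0127 and 9.76e-06), and 1.17 ± 0.25 and 1.97 ± 0.24 under BD10-2 (edgeR adjusted p = 0.00355 and 2.33e-06). Batches as named in the labels hold 1 treatment each, and those with both genotypes in 1 kind of slice gave the same direction. On the log2(CPM + 1) scale the within-batch differences were 0.46 (batch A), 0.82 (C), 1.17 (D) and 0.98 (I) in sham and 1.76 (A), 1.108 (C) and 1.82 (I) in stimulated slices, from 1 or 2 mice of a genotype each. The sham vehicle call was lost with a batch term in the fit (0.72 ± 0.25, edgeR adjusted p = 0.193), without Mouse1509, Mouse1513 or Mouse1551 (0.87 to 1.06) and without the samples rich in choroid plexus markers (0.88 ± 0.30, edgeR adjusted p = 0.232). With the first library of each same-label pair it missed the threshold (0.97, edgeR adjusted p = 0.0518).

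Pfkfb3 was higher in stimulated T41B than in stimulated WT slices, by 0.76 ± 0.15 under vehicle (edgeR adjusted p = 0.00118) and 0.89 ± 0.16 under BD10-2 (edgeR adjusted p = 1.86e-04). Sham slices of the genotypes did not pass the threshold (0.27 ± 0.15 and 0.11 ± 0.16, edgeR adjusted p = 0.303 and 0.741). Within batches the stimulated difference was 0.62 (A), 0.49 (C) and 0.84 (I), and with a batch term the vehicle call was lost (0.53 ± 0.16, edgeR adjusted p = 0.0619), as it was without the samples rich in choroid plexus markers (0.58 ± 0.20, edgeR adjusted p = 0.202).

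Under BD10-2 the lactate exporter Slc16a3 was also higher in T41B mice, at 4.23, 4.29, 4.33, 4.45 and 5.24 CPM against 1.41, 1.62 and 2.03 CPM in sham slices (1.39 ± 0.25, edgeR adjusted p = 5.58e-04) and 4.28, 4.65, 5.27, 5.88 and 6.30 CPM against 2.03, 3.04 and 3.63 CPM in stimulated slices (0.85 ± 0.24, edgeR adjusted p = 0.017). The groups did not overlap, and within batches D and I the sham difference was 1.14 and 0.95. The stimulated call was lost without Mouse1565 or Mouse1571 (0.66 to 1.05). It was also lost with the second library of each same-label pair (0.74, edgeR adjusted p = 0.0875). Stimulated BD10-2-treated T41B slices were further higher in Slc2a1 (0.62 ± 0.15, edgeR adjusted p = 0.00567) and Slc16a1 (0.50 ± 0.15, edgeR adjusted p = 0.0263). The Slc2a1 call was lost without Mouse1565 (0.54 to 0.74 over the mice left out) and the Slc16a1 call without any of 5 mice (0.39 to 0.63; Mouse1563, Mouse1564, Mouse1565, Mouse1571 and Mouse1586). The Slc16a1 call was lost too in a fit on only those groups (0.49, edgeR adjusted p = 0.139) and with the first library of each same-label pair (0.50, edgeR adjusted p = 0.0568).

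Hif1a lay higher in T41B than in WT mice without overlap in all 4 comparisons and was called in 1 of them. In vehicle-treated mice it read 69.6, 78.4, 78.5 and 93.4 CPM in T41B and 53, 57, 61.9 and 65.7 CPM in WT sham slices, and 79.5, 81.3, 94.4 and 106 CPM and 63.2, 70.5, 74.9 and 75.2 CPM in stimulated slices. WT slices under BD10-2 read 54.02, 57.4 and 61.2 CPM after sham and 66.9, 67.2 and 69.1 CPM after stimulation, below every T41B slice of the same stimulation. The log2 fold change was 0.63 ± 0.15 in stimulated BD10-2-treated slices (edgeR adjusted p = 0.00392), and 0.43 ± 0.14, 0.35 ± 0.14 and 0.40 ± 0.15 in vehicle sham, vehicle stimulated and BD10-2 sham slices, which missed the threshold (edgeR adjusted p = 0.0627, 0.168 and 0.113). In vehicle sham slices DESeq2 called it (0.43 ± 0.15, DESeq2 adjusted p = 0.0429), as did edgeR without Mouse1510 (0.49 ± 0.15, edgeR adjusted p = 0.0328) and without the lower-Thy1 stimulated library of Mouse1592 (edgeR adjusted p = 0.0466). When the fit held no other groups, it missed the threshold in BD10-2 stimulated slices (0.61, edgeR adjusted p = 0.0771) and was called in BD10-2 sham slices (0.39 ± 0.10, edgeR adjusted p = 0.0283).

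Vehicle-treated mice gave 3 further genotype calls. Egln3 was higher in sham T41B slices (3.03, 3.25, 3.36 and 7.26 CPM against 1.304, 2.16, 2.54 and 2.58 CPM), by 0.98 ± 0.26 (edgeR adjusted p = 0.0204). The highest value belonged to Mouse1551, whose sham slice held 132 CPM of summed choroid plexus markers. The sham slice of Mouse1553 held more of these markers, 527 CPM, and had the lowest Egln3 of the group, 3.03 CPM. Without Mouse1551 the log2 fold change was 0.58 and was not called, and the call was also lost without Mouse1509 or Mouse1513. Ppp1r3c was higher in sham T41B slices (0.55 ± 0.12, edgeR adjusted p = 0.00429), with overlapping groups. Within batches its sham difference on the log2(CPM + 1) scale was 0.47 (A) and -0.06 (C), from 1 mouse of each genotype. Bnip3 was lower in stimulated T41B slices (-0.40 ± 0.11, edgeR adjusted p = 0.0177), without overlap, and the call was lost without Mouse1510, Mouse1524 or Mouse1551 (-0.46 to -0.31). With a batch term Egln3 was 0.57 ± 0.31 and Ppp1r3c 0.28 ± 0.12, and neither was called (edgeR adjusted p = 0.569 and 0.416), while the genotype calls not named here as lost with it were kept. Without the samples rich in choroid plexus markers Egln3 was 0.63 ± 0.27, Ppp1r3c 0.35 ± 0.13 and Bnip3 -0.52 ± 0.14, and none was called (edgeR adjusted p = 0.514, 0.367 and 0.0719). In fits on only the groups compared, none of Egln3 (0.98), Ppp1r3c (0.54) and Bnip3 (-0.39) was called either (edgeR adjusted p = 0.179, 0.0748 and 0.0622). The 16 enzymes other than Hk2 had 0 calls in each genotype comparison, with 1, 0, 0 and 0 at an unadjusted p under 0.05 in edgeR and 0 in DESeq2.

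Other settings added genotype calls of further members. A batch term called Pgk1 (-0.37 ± 0.10, edgeR adjusted p = 0.0296) and the hypoxia-induced Ankrd37 (-0.99 ± 0.28, edgeR adjusted p = 0.0463) lower in vehicle-treated stimulated T41B slices, and Ankrd37 was also called there without the choroid-rich samples (-1.302 ± 0.31, edgeR adjusted p = 0.0409). Without Mouse1524, Aldoc was called higher in vehicle-treated sham (0.44 ± 0.11, edgeR adjusted p = 0.0123) and stimulated T41B slices (0.48 ± 0.11, edgeR adjusted p = 0.00752), as was Pygb (0.36 ± 0.08 and 0.32 ± 0.08, edgeR adjusted p = 0.00332 and 0.00993). Without Mouse1510, Slc16a3 (0.73 ± 0.23, edgeR adjusted p = 0.0419) and Gyg (0.31 ± 0.10, edgeR adjusted p = 0.0466) were called higher in vehicle-treated sham T41B slices. In stimulated BD10-2-treated T41B slices Gyg was called higher by DESeq2 (0.29 ± 0.10, DESeq2 adjusted p = 0.0432) and with the second library of each same-label pair (edgeR adjusted p = 0.0291). Without Mouse1565 the second Aldoa identifier was called higher in BD10-2-treated sham T41B slices (1.55 ± 0.39, edgeR adjusted p = 0.0268).

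BD10-2 against vehicle gave no calls in edgeR with all mice. In each of its 4 comparisons 0% of all tested genes and 0 of 39 member rows were called. At an unadjusted p under 0.05 in edgeR there were 1 member row in sham WT slices, 4 in stimulated WT slices and 0 in sham and in stimulated T41B slices, and DESeq2 called 0 members in each. Of all tested genes, 374, 1093, 431 and 759 had such a p (sham WT, stimulated WT, sham T41B, stimulated T41B), and DESeq2 called 0, 25, 0 and 0. In stimulated WT slices edgeR called 21 genes lower without Mouse1522 and 26 lower without Mouse1524, of which 0 were members. The single sham WT row was Ppp1r3c, at 57.9, 70.6 and 70.9 CPM with BD10-2 against 37.7, 42.3, 43.4 and 57.1 CPM with vehicle (0.56 ± 0.13, unadjusted p = 1.62e-04, edgeR adjusted p = 1). Without Mouse1524 it was called at 0.69 ± 0.11 (edgeR adjusted p = 0.0258). In stimulated WT slices the 4 rows were Pgk1 (-0.26 ± 0.12), Pgam1 (-0.31 ± 0.13), Eno1 (-0.31 ± 0.15) and Bnip3 (-0.28 ± 0.11), each with an edgeR adjusted p of 0.881. Treatment and batch cannot be told apart, since no batch holds both treatments.

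The 4 interactions, which test whether a stimulation difference itself differs between genotypes or treatments, likewise had 0% of all genes and 0 of 39 rows called in the main edgeR fit. Between genotypes 7 rows had an unadjusted p under 0.05 in edgeR under vehicle and 3 under BD10-2, and between treatments 1 in WT and 1 in T41B mice, and DESeq2 called 0 members in each. Of all tested genes, 1683, 846, 337 and 526 had such a p in that order, and DESeq2 called 4, 20, 0 and 1. Under vehicle the 7 included Ppp1r3c (-0.57 ± 0.17, unadjusted p = 0.00235), whose response was smaller in T41B mice, and Egln3 (-1.002 ± 0.37, unadjusted p = 0.0107). In WT mice the response of Ppp1r3c with BD10-2 minus that with vehicle was -0.67 ± 0.18 (unadjusted p = 9.61e-04). Other edgeR settings called a few genes for the genotype interaction. A batch term called 2 higher and 3 lower under vehicle and 5 and 1 under BD10-2. The replicate block called 1 higher and 2 lower under vehicle, and the second library of each same-label pair 6 higher under BD10-2.

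Related genes outside the 38 came from lists of the same pathways. Of 25 further genes known as hypoxia targets, 6, 6, 5 and 9 were called higher and 0, 2, 0 and 1 lower after stimulation (vehicle WT, vehicle T41B, BD10-2 WT, BD10-2 T41B). Among all tested genes the shares called higher were 8.21%, 11.7%, 6.29% and 13.3%, and those called lower 4.10%, 9.83%, 2.58% and 9.52%. Angptl4, an inhibitor of lipoprotein lipase that fatty acids and hypoxia induce, had log2 fold changes of 3.73 to 4.48, from a range of 1.64 to 6.07 CPM in sham to 29.8 to 124.6 CPM in stimulated slices. Hmox1, the inducible haem oxygenase of oxidative stress, changed by 2.90 to 4.16. Both were called in the 4 comparisons and were higher in the stimulated slice of 14 of 14 mice. Plin2 (1.78 to 2.44) and Kdm3a (0.50 to 0.57) were also called higher in the 4 comparisons and were higher in 14 of 14 mice. The median log2 fold changes of the 25 were 0.14, 0.11, 0.04 and 0.18, close to 0 beside those of Angptl4 and Hmox1. Of 12 regulators of the factor, Cited2, a competitor for its coactivator, was called higher in 3 comparisons (0.44 to 0.83 over the 4), and Epas1, the second oxygen-regulated subunit, in both T41B comparisons (0.52 and 0.35).

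Among 11 other glycolytic isozymes that were tested, Hk3, a hexokinase of myeloid cells, rose in all 4 comparisons (1.77 to 2.59) and was higher in T41B mice in all 4. Its sham and stimulated slices read 1.07, 1.13, 1.56 and 1.73 CPM and 4.43, 4.49, 4.62 and 5.12 CPM in vehicle-treated WT mice, and 2.81, 3.04, 3.61 and 5.13 CPM and 10.3, 15, 17.6 and 24.5 CPM in vehicle-treated T41B mice, without overlap. Of 11 other sugar and lactate carriers, Slc2a5, the fructose carrier that marks microglia in brain, fell in all 4 (-2.60 to -2.25). Slc2a13, a carrier of inositol (-0.46 to -0.28), and Bsg, the chaperone of the lactate carriers (-0.42 to -0.19), were called lower in 3 each. In the list of 10 genes of pyruvate dehydrogenase and pyruvate import, Pdp1, the phosphatase that opposes the kinases (-0.46 to -0.10), and Mpc2, a subunit of the mitochondrial pyruvate carrier (-0.34 to -0.22), fell in both T41B comparisons.

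Pgd, an oxidative enzyme of the pentose phosphate pathway, was the one of 7 genes of that list called in all 4 comparisons, higher by 0.61 to 0.72. Of 18 other glycogen genes, 2 were called higher in each comparison, Pygl, the liver phosphorylase (0.72 to 1.04), and Gbe1, the branching enzyme (0.41 to 0.57). In the same list 1, 4, 2 and 4 were called lower, among them Ppp1r3d, a further phosphatase subunit, in all 4 (-0.71 to -0.45). These counts stand beside 8.21%, 11.7%, 6.29% and 13.3% of all tested genes called higher. The shares of all tested genes called lower were 4.10%, 9.83%, 2.58% and 9.52%.

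Markers of cell types moved with stimulation and genotype beside these results. Their calls stand beside 8.21%, 11.7%, 6.29% and 13.3% of all tested genes called higher after stimulation and 4.10%, 9.83%, 2.58% and 9.52% lower. For genotype the shares were 5.0%, 4.74%, 4.31% and 8.19% higher and 1.24%, 1.05%, 1.14% and 2.36% lower in T41B mice. Microglia markers (8 genes such as Csf1r and P2ry12) had 7, 8, 8 and 7 called lower after stimulation, and their summed level was lower in the stimulated slice of 14 of 14 mice. The sums were 245 to 319 CPM in sham and 103 to 164 CPM in stimulated vehicle-treated WT slices, and 508 to 914 CPM and 248 to 353 CPM in vehicle-treated T41B slices. Under BD10-2 they were 273 to 332 CPM and 119 to 150 CPM in WT, and 617 to 869 CPM and 319 to 518 CPM in T41B slices. Between genotypes 7, 4, 6 and 8 of the 8 were called higher in T41B mice. Hk2, Pfkfb3 and Hk3 were called higher after stimulation, where the summed microglia markers were lower. Hk2 and Hk3 were called higher in T41B mice, where those markers were higher too, as were 2, 2, 2 and 5 of the 6 astrocyte markers. Summed neuron markers were lower in T41B mice in all 4 comparisons, at means of 3588 against 4192 CPM and 3017 against 3656 CPM in sham and stimulated vehicle-treated slices, and 3387 against 4099.6 CPM and 2719.9 against 3212 CPM under BD10-2. The groups overlapped only in stimulated BD10-2-treated slices, and 1, 1, 0 and 0 of the 6 neuron markers were called lower.

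Astrocyte markers (6 genes such as Aqp4 and Gfap) had 3, 4, 0 and 3 called higher after stimulation and were higher in sum in 14 of 14 mice by a median of 0.26 on the log2 scale. Neuron markers (6 genes such as Rbfox3 and Snap25) had 1, 1, 1 and 4 called lower and were lower in sum in 14 of 14 mice, by a median of -0.25. Oligodendrocyte markers (5 genes) were higher in sum in 10 of 14 mice, by a median of 0.28 (-1.53 to 0.77), with 0 called higher in each comparison and 0, 1, 0 and 0 lower. Endothelium markers (6 genes) were higher in sum in 10 of 14 mice, with 0, 1, 0 and 1 called higher and 1, 0, 1 and 1 lower. Markers of blood myeloid cells (5 genes such as S100a8) stood at 0.0 to 0.7 CPM in sum in all samples, and none was tested. Mitochondrial transcripts took a larger share of the counts in the stimulated slice of 13 of 14 mice, by a median of 0.378 percentage points. The part of these shifts in the changes of the member genes was not tested.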

How the data were processed

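Total RNA of hippocampal slices was sequenced from ribosome-depleted stranded libraries, per the labels' protocols. The authors deposited estimated counts per gene from RSEM 1.3.1; STAR 2.7.6a, cutadapt 1.8.1, featureCounts 1.6 and SAMtools 1.11, with builds GRCm38.p6 and mm10, are also named, per the submitters' processing notes. Estimated counts were rounded. The 4 pairs of libraries with equal mouse and stimulation labels differed by more than sampling noise (chi-square per degree of freedom 8.1 to 31.6) and were summed as 1 slice of 1 animal, as labelled; whether they are repeat libraries or a label is wrong was not tested, and a wrong label would change those summed values and the n. Replicates are different mice.

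Genes were kept by filterByExpr (minimum count 10), scaled by TMM (factors 0.91 to 1.063) and fitted over the 8 groups with edgeR 4.0.16 (quasi-likelihood test, Benjamini-Hochberg adjustment) in R 4.3.3. The scripts were tested on simulated data. Groups come from the labels. Alternatives were DESeq2 1.42.0, RLE scaling, no filter, only the groups compared, a batch term, single libraries of each pair, each mouse left out and a mouse block. Slices of 1 mouse pair by the labelled animal, and their deviations from the group means correlated at 0.205 on average (0.0224 to 0.411, 14 pairs) against -0.0552 for 52 other pairs. Coordinates are those of GENCODE M21 on GRCm38, and levels between genes are per kilobase of merged exons.

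The members and lists were chosen with earlier results of these data known. Values in every group (group means for Aldoa and Aldoc, and their range for the second Aldoa identifier) are given for members called in at least 3 stimulation comparisons, for up to 3 per genotype, treatment or interaction comparison, and for the 2 highest and 2 lowest per kilobase. From each pathway list, up to 3 genes called in at least 2 stimulation comparisons are named, by mean absolute log2 fold change. Hif1a, Vegfa, Ldha, Pdk1, Bnip3 and other members beyond this rule, and Plin2 and Kdm3a of the hypoxia list, were named after their values were seen. One gene of these lists is not reported here.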

Additional observations from a re-analysis of the deposited data

Results flagged for a closer look

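In groups of 4 or 5 samples, 246 sets of values (the 39 member rows and the 2 scores in 6 groups) were searched for a highest or lowest sample that stood far from the rest by Dixon's criterion, which chance alone meets in about 1 in 20 groups, and 20 were found. The sham slice of WT Mouse1522 under vehicle was high for Pdk4 at 27.7 CPM (other samples 22.3 to 22.8 CPM) and for Slc16a1 at 42.5 CPM (35.4 to 36.5 CPM). The stimulated slice of vehicle-treated T41B Mouse1579 was low for Pdk4 at 47.5 CPM (64.3 to 65.6 CPM), and that of Mouse1551 in the same group was low for Pdk1 at 26.4 CPM (31.2 to 31.8 CPM). Egln3 stood out in 3 groups. It was high in the stimulated slice of vehicle-treated WT Mouse1524 at 4.36 CPM (2.32 to 2.37 CPM) and in the sham slice of vehicle-treated T41B Mouse1551 at 7.26 CPM (3.03 to 3.36 CPM), and low in the stimulated slice of BD10-2-treated T41B Mouse1570 at 3.06 CPM (3.78 to 4.01 CPM). The sham slice of BD10-2-treated T41B Mouse1563 was high for Slc16a3 at 5.24 CPM (4.23 to 4.45 CPM) and low for the mean log2(CPM + 1) of the glycolytic enzymes at 7.91 (others from 7.98 upwards). Mouse1524, a vehicle-treated WT mouse, was also high in its stimulated slice for Aldoc at 903.7 CPM (505.7 to 563.6 CPM), Ldhb at 224.6 CPM (139.3 to 153.6 CPM), Pygb at 289.9 CPM (196.3 to 210.8 CPM) and Pygm at 40.7 CPM (19.7 to 22.6 CPM), which makes 5 of the 20 sets with Egln3. Mouse1563 was low for Pfkm at 197.3 CPM (216.8 to 222.98 CPM) and Eno1 at 368.9 CPM (398.7 to 401.6 CPM) in its sham slice and for Pkm at 588.5 CPM (701.1 to 744.04 CPM) in its stimulated slice, which with Slc16a3 and the enzyme score makes 5 more. The other 4 sets were Aldoc, high in the stimulated slice of BD10-2-treated T41B Mouse1564 at 888.2 CPM (656.2 to 712.6 CPM), Eno2, low in the sham slice of vehicle-treated WT Mouse1513 at 365.97 CPM (466.7 to 480.2 CPM), Ldhb, high in the stimulated slice of vehicle-treated T41B Mouse1579 at 168.9 CPM (158.7 to 159.6 CPM), and Pfkfb4, high in the sham slice of vehicle-treated T41B Mouse1510 at 12.3 CPM (10.34 to 10.6 CPM).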

How the results depend on the processing

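Of the 48 calls of a member in a comparison, DESeq2 and RLE scaling each kept 48, no filter on low counts 47, the second library of each same-label pair 46, the first 44, a batch term 44 and a fit on only the groups compared 37. Added after seeing the data, leaving out the lower-Thy1 library of Mouse1592 kept 48 and leaving out the 6 samples rich in choroid plexus markers kept 36. No call changed sign, and 32 of the 48 held without each mouse in turn.

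Rows called lower in vehicle-treated WT mice numbered 2, against 1 without a filter, 0 in a fit on only those groups, 1 with the first library of each pair, 1 without the choroid-rich samples and 0 to 1 without each mouse. Without each mouse they numbered 2 to 4 in vehicle-treated T41B mice (4 with all mice) and 0 to 1 in BD10-2-treated WT mice (1 with all), beside 5.20% to 8.25% of all tested genes (9.83% with all mice) and 0.843% to 1.33% (2.58% with all). In the latter group DESeq2 gave 2, the first library of each pair 2 and the choroid-free set 2. The choroid-free set gave 3 higher and 1 lower in vehicle-treated T41B mice. Rows called higher in BD10-2-treated WT mice numbered 3 to 4 without each mouse, beside 2.98% to 5.25% of all genes in place of 6.29%. For genotype in vehicle-treated sham slices, 3 rows became 1 in a fit on only those groups, 0 with a batch term, 0 without the choroid-rich samples and 1 to 6 without each mouse, while 5.0% of all tested genes called higher became 2.97%, 1.70%, 1.27% and 2.65% to 7.33%. For stimulated BD10-2-treated slices 6 became 3 to 6, with 5.0% to 9.56% of all genes in place of 8.19%. Leaving out a mouse gave 0 to 1 rows for treatment in sham WT slices (Mouse1524, with 1 of 19474 genes called) and for the genotype interaction under BD10-2 (Mouse1592, with 76 higher and 3 lower of 19406). Over all tested genes, 4.10% were called lower in vehicle-treated WT mice, 2.42% in a fit on only those groups, 5.35% without the choroid-rich samples and 1.53% to 2.19% without each mouse, and the choroid-free set gave 4.45% higher and 1.58% lower in vehicle-treated T41B mice in place of 11.7% and 9.83%. Leaving out each mouse also gave 4.85% to 6.65% higher in vehicle-treated WT mice (8.21% with all). In BD10-2-treated T41B mice it gave 5.71% to 9.45% lower (9.52% with all). For genotype under BD10-2 it gave 2.16% to 4.09% higher in sham slices (4.31% with all) and 0.323% to 3.02% lower in stimulated slices (2.36% with all). The cause of these changes was not tested.

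With the mouse as a replicate block, 29 of 34 stimulation calls were kept. It gave 11 rows higher in vehicle-treated T41B mice in place of 5, and 3 higher and 0 lower in BD10-2-treated WT mice, which have 2 complete pairs, in place of 5 and 1. The shares of all tested genes called higher went from 11.7% to 15.8% and from 6.29% to 4.66% in these groups, and the share lower in the latter from 2.58% to 1.73%. The stimulated minus sham difference of the enzyme score in BD10-2-treated T41B mice was 0.129 with Hk2 and -0.00858 without it. For the hypoxia score this difference was 0.078 with Pfkfb3 and -0.115 without it in vehicle T41B mice. It went from 0.096 to -0.0103 in BD10-2 WT and from 0.226 to 0.033 in BD10-2 T41B mice when Pfkfb3 was left out. Low counts limit the precision of the second Aldoa identifier, Ankrd37, Slc16a3 and Egln3.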
